A study of Mus musculus with 12 samples.

Results

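Interferon-stimulated genes are the genes that cells switch on when they sense interferons, the secreted proteins that warn neighbouring cells of infection. A list of 37 such genes of the mouse, without the genes of antigen presentation, was followed in immortalized tumor-initiating cells. The list was made of 26 effectors of the type I response, 4 interferon-inducible GTPases, 4 Stat and Irf transcription factors and 3 RNA sensors. A named probe was found for 35 of the 37, and 29 were measured, meaning that a probe had a detection p-value below 0.05 on at least 3 of the 12 arrays. The measured genes were 19 effectors, 4 GTPases, 4 factors and 2 sensors, out of 10365 genes measured in all. Ifi44 and Herc6 had no named probe in the annotation used here. The probes of Ifih1, Ifit1, Oas1a, Mx1, Xaf1 and Parp9 did not pass the detection filter, so no value is given for these 6 genes. Of the 29, 19 were detected on all 12 arrays.

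The cells were measured on 1-colour bead arrays in 2 kinds of culture. The hypoxic group (n = 3 arrays) was kept at 3% O2 in a serum-free mammary stem cell medium on MEBM base with 2% Cultrex. The normoxic groups were moved from that culture to a DMEM-based standard medium at 21% O2 and taken after 1, 2, 3, 4, 5 or 6 days (1 array each) or 7 days (n = 3 arrays). Oxygen and medium changed together, so their effects cannot be told apart. The labels do not say that replicates were separate cultures, so the p-values below measure a spread between arrays that may be technical. In the comparisons with hypoxic culture, only the hypoxic and day 7 triplicates carry that spread (4 residual degrees of freedom). The single arrays of days 1 to 6 were taken to vary like those triplicates, which was not tested.

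Type I interferons bind a receptor whose kinases, Jak1 and Tyk2, activate Stat proteins. Stat2 joins another Stat protein and Irf9 in a complex that binds the interferon-stimulated response element (ISRE) in promoters. Interferon gamma acts through Stat dimers that bind the gamma-activated site (GAS), and is a strong inducer of Irf1 and of the GTPases of the Irg and Gbp families, which attack vacuoles that hold microbes. Irf7, itself induced by interferon, amplifies the production of type I interferons, and many members are thus both products and parts of the same circuit. Several tumour cell types express interferon-stimulated genes without infection.

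Promoter sequence is shown for 4 members with a match to the ISRE, the GAS or both. RefSeq windows on GRCm38.p6, running from 250 bases before to 50 after a gene's start, were found for 27 of the 37 genes. The ISRE core was searched as GAAANNGAAA and the GAS as TTCNNNGAA on both strands. The core was found in 14 of the 27 genes, against 3.99% of all 27025 genes with a window. The GAS was found in 8 of the 27, against 9.55% of all genes. In all, 18 of the 27 had 1 or both, and the others, Irf7 and Irf9 among them, had neither and are not shown. A match is a description of these letters and not evidence of binding. The 120 bases that end just before the start are printed 5′ to 3′ along the gene's strand, with matches to either motif in capitals.
Isg15 (chr4:156200819-156200938, minus strand, 3 overlapping ISRE cores): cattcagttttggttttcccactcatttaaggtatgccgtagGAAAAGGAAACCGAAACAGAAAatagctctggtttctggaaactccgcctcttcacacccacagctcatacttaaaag
Gbp3 (chr3:142559924-142560043, plus strand, 2 overlapping ISRE cores on the opposite strand): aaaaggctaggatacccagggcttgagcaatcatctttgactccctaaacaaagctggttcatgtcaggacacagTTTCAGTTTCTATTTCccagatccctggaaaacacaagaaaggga
Igtp (chr11:58199436-58199555, plus strand, a GAS followed by an ISRE core): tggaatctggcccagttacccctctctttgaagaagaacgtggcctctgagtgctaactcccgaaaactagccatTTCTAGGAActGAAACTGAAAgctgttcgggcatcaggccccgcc
Irf1 (chr11:53769894-53770013, plus strand, a GAS alone): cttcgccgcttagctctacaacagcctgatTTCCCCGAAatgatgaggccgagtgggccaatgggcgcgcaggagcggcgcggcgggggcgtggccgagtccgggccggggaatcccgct
Among the measured classes, the ISRE core was found in 3 of 4 GTPases and in 1 of 4 Stat and Irf factors.

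Some properties of the arrays bear on every result. Each array detected 34.3% to 37.7% of its 45281 probes. By the sequence of the p-value columns and by the arrays held in the authors' processed table, the arrays form 2 sets of 6, here called set a (hypoxic replicate 3, days 4 to 6, day 7 replicates 2 and 3) and set b (the others). The sets are inferred and no label states them, and every array of days 1 to 3 lies in set b and every array of days 4 to 6 in set a. Day 7 replicate 3 stood apart for the members. It was the lowest of the 3 day 7 arrays in 26 of 29 members, against 36.2% of all genes, and lay a median of -0.69 (log2) from the mean of replicates 1 and 2, against -0.01 over all genes. The day 7 counts are therefore given with and without it, and the calls that it changed are named with the day 7 comparison below.

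In outline, the members were low on days 1 to 3 of normoxic culture and higher again by days 6 and 7. On days 1 to 3, 21 of 29 members were lower than in hypoxic culture and 0 were higher. Among all genes, 29.2% were lower, 25.6% higher and 54.9% changed in either direction (limma across all genes, Benjamini-Hochberg adjusted p below 0.05, as for every call below). The members' median log2 difference was -1.44, against -0.06 over all genes, and 15 of the 21 were at least 2-fold lower, with lower bounds used where a gene was not detected. Oas2 passed the detection filter through the hypoxic arrays alone, so its lower values elsewhere were fixed by that filter, and without it 20 of 28 members were lower. Of the 19 members detected on all 12 arrays, 15 were lower on days 1 to 3, with a median of -1.44. On days 4 to 6, 13 members were lower (12 without Oas2) and 4 higher, with a median of -0.72, while 29.2% of all genes were lower, 25.6% higher and 54.8% changed either way. That result rested in part on day 4, without which 6 members were lower and 4 higher, with a median of -0.19, against 26.7% and 23.3% of all genes. With the sets as a block, 7 were lower and 3 higher, against 23% and 20.7% of all genes. On day 7, 6 members were higher and 4 lower (3 without Oas2), with a median of 0.29 against -0.11 over all genes, of which 25.9% were higher, 33.7% lower and 59.7% changed. Because these 3 comparisons share the hypoxic arrays, their values are given side by side and not as independent results.

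**Figure D1:**
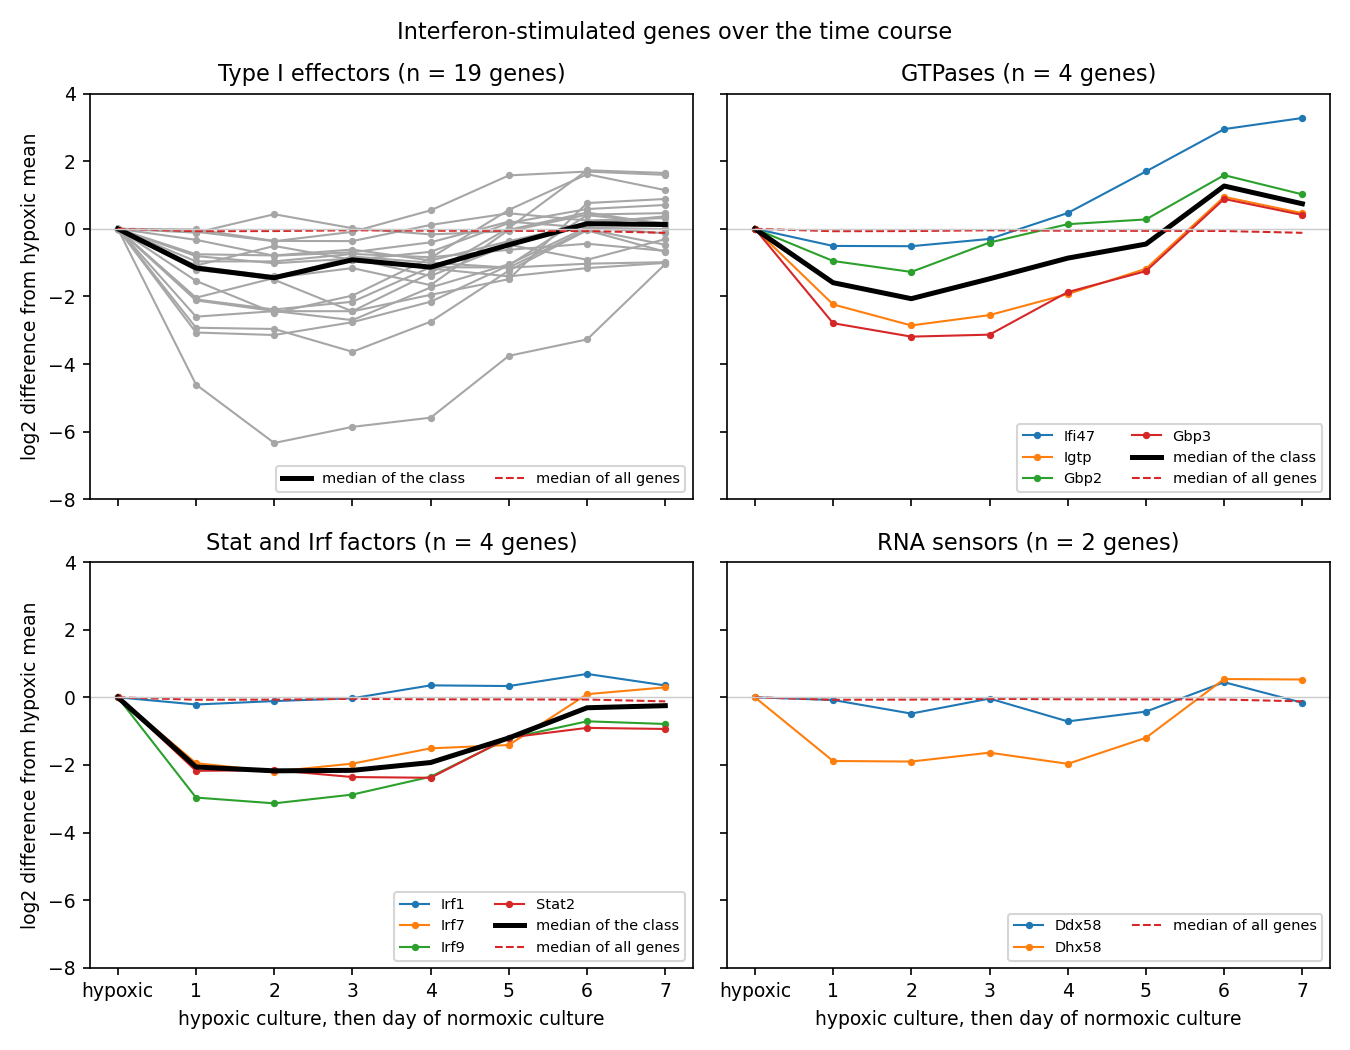
Log2 difference from the mean of the 3 hypoxic arrays (y) in hypoxic culture and on each day of normoxic culture (x; day 7 is the mean of 3 arrays), 1 thin line per gene, with the class median in black where a class has more than 2 genes and the median of all genes dashed. The class medians lie well below the dashed line on days 1 to 3, and the lowest line among the effectors, Ifi27l2a, includes 3 days on which that gene was not detected.

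The same course was seen array by array. Of the 29 members, 26 lay below all 3 hypoxic arrays on day 1, 28 on day 2 and 26 on day 3, where 43.5%, 43.9% and 42.7% of all genes did. The number was 24 on day 4, against 43.4% of all genes, and 19 on day 5, against 42.6%. On day 6 it was 7, against 44.1%. On day 7 it was 8 in replicate 1, 8 in replicate 2 and 17 in replicate 3, against 45.9%, 46.9% and 47.3% of all genes. The members' median difference from the hypoxic mean was -1.22, -1.46, -1.16, -1.17, -0.62 and 0.40 on days 1 to 6, and 0.44, 0.51 and -0.46 in the 3 day 7 arrays.

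**Figure D2:**
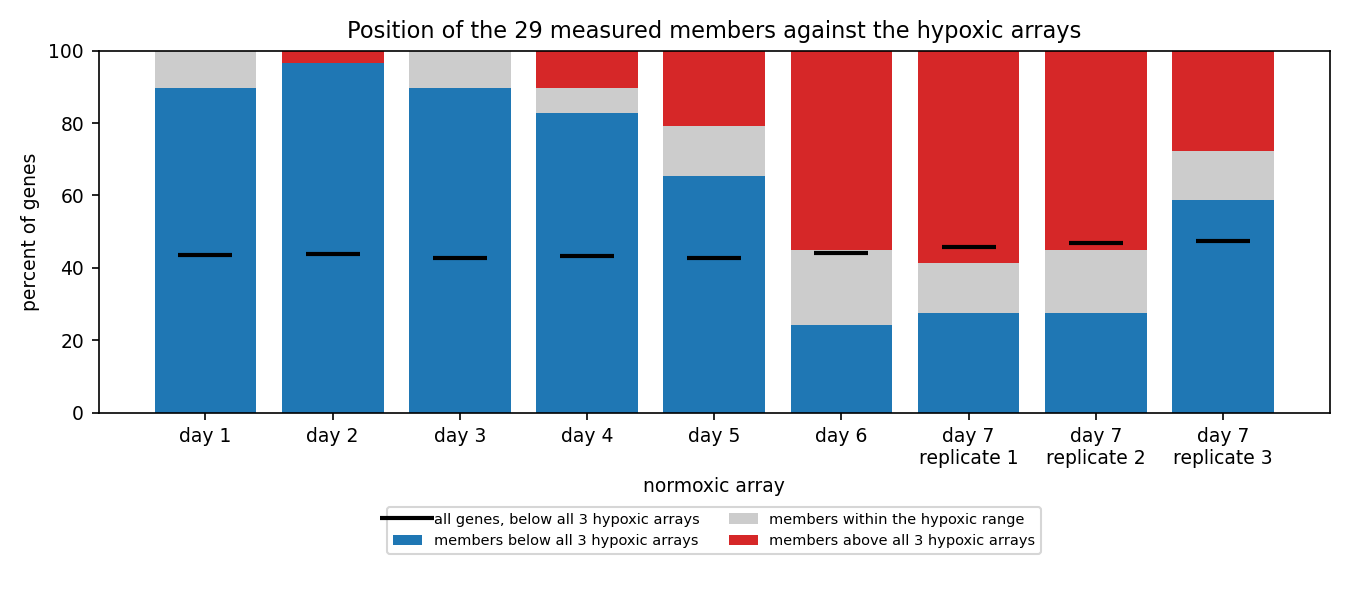
Percent of the 29 members (y) that lay below, within or above the range of the 3 hypoxic arrays on each normoxic array (x), with a black mark for the percent of all genes below that range. On day 2, 28 of 29 members lay below it, and on day 6 only 7 did.

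In 25 members every array of days 1, 2 and 3 lay below every hypoxic array, in Oas2 because of the detection filter. The share of all genes was not counted over the 3 days together, but cannot exceed the 42.7% that lay below on day 3. The other counts of this paragraph were not made over all genes either. Of these 25, 3 had reached the lowest hypoxic value by day 4, 8 by day 5 and 18 by day 6. The other 7 did not reach it on days 4, 5 or 6 or in the day 7 mean: Ifit2, Isg20, Oas2, Ifi27l2a, Trim25, Irf9 and Stat2. The lowest normoxic value fell on one of days 1 to 4 in 28 of 29 members, the exception being Oas2, which was not detected on any normoxic array.

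A straight line over the 9 normoxic arrays, which uses no hypoxic array, rose in 22 of 29 members and fell in 0. Among all genes, 16.5% rose, 19% fell and 35.5% did either. The members' median slope was 0.36 log2 units per day, against -0.01 over all genes. Among the steepest fitted slopes were Isg15 at 0.83 ± 0.09, Ifi27l2a at 0.82 ± 0.16 and Ifi47 at 0.73 ± 0.06 per day (± SE of the fit; adjusted p = 0.000199, 0.0038 and 6.09e-05). Ifi27l2a and Ifi47 were each not detected on 3 of these arrays. Without days 1 to 3, 3 members rose and 0 fell, against 1.63% and 0.675% of all genes. Without all day 7 arrays, 9 rose and 0 fell, against 1.98% and 2.12% of all genes.

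The values of single genes follow as normalized log2 signal, with replicates 1 to 3 in order, and cannot be compared between probes. Differences are log2 values ± SE of the fit. Where a gene was not detected on 1 or more arrays of the dimmer group, the fold is given as a lower bound, from the mean of the brighter group against, on each array of the dimmer one, the higher of the lowest detected signal and the gene's own. Fitted differences printed beside such bounds hold values not above background. Bulk RNA does not tell fewer expressing cells from less RNA per cell.

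Among the effectors, Isg15 and the protease that acts on it were both lower on days 1 to 3. Isg15, a ubiquitin-like protein that is joined to other proteins, gave 9.74, 10.74 and 10.78 in hypoxic culture. It gave 7.82, 7.98, 7.98, 9.11, 10.44 and 12.15 on days 1 to 6 and 12.59, 12.52 and 11.09 on day 7. The arrays of days 1 to 3 lay below, and those of day 7 above, every hypoxic array. Isg15 was 5.62-fold lower on days 1 to 3 (-2.49 ± 0.46, adjusted p = 0.00287) and 3.14-fold higher on day 7 (1.65 ± 0.46, adjusted p = 0.0164). The day 7 call was lost without hypoxic replicate 1 or without day 7 replicate 2. Usp18, the protease that removes Isg15 from proteins and restrains signalling at the type I receptor, gave 9.99, 10.13 and 10.46 in hypoxic culture, 7.13, 7.05, 7.43, 8.04, 9.11 and 10.60 on days 1 to 6 and 10.69, 10.75 and 9.64 on day 7. It was 7.95-fold lower on days 1 to 3 (-2.99 ± 0.31, adjusted p = 0.000196), and its day 7 arrays overlapped the hypoxic ones (0.17 ± 0.31, adjusted p = 0.667, and higher without day 7 replicate 3).

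The Oas family makes or resembles enzymes that make 2′-5′ oligoadenylates, the signal that turns on an RNA-degrading nuclease. Oasl2 gave 10.15, 10.13 and 10.98 in hypoxic culture, 7.50, 7.46, 6.78, 7.68, 9.18 and 10.38 on days 1 to 6 and 10.10, 10.09 and 9.04 on day 7. It was 9.04-fold lower on days 1 to 3 (-3.18 ± 0.35, adjusted p = 0.000271). All 3 day 7 arrays still lay below the hypoxic ones, without passing the test (-0.68 ± 0.35, adjusted p = 0.135). Oas1g gave 7.71, 8.53 and 8.67 in hypoxic culture, 7.14, 6.79, 5.86, 6.35, 6.81 and 9.06 on days 1 to 6 and 9.54, 9.53 and 8.48 on day 7. It was 3.26-fold lower on days 1 to 3 (adjusted p = 0.00566), and on day 6 it lay above every hypoxic array. Oas2 was detected on the 3 hypoxic arrays, at 5.75, 5.46 and 6.54, and on no other, and it passed the filter through them alone. Its lower values elsewhere were thus fixed by that filter, and its calls as lower are no support. The bounds were at least 1.44-fold lower on days 1 to 3 and at least 1.30-fold lower on day 7. The day 7 call was lost when scaled to the median of probes detected on all arrays.

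The Ifit proteins bind viral RNA and block its translation, and 2 were measured. Ifit3 gave 7.24, 7.90 and 8.48 in hypoxic culture, 6.33, 5.38, 5.90, 7.01, 8.43 and 9.48 on days 1 to 6 and 9.62, 9.63 and 7.80 on day 7. Its 3 early arrays lay below the hypoxic range (-2.00 ± 0.54, adjusted p = 0.016), a call that was lost without hypoxic replicate 3. A second Ifit3 probe, detected on 7 arrays, did not pass on days 1 to 3 (-0.84, adjusted p = 0.178 in a fit of all probes). By the brighter probe, the day 7 arrays overlapped the hypoxic range (1.14 ± 0.54, adjusted p = 0.105). Ifit2 gave 9.25, 8.94 and 9.11 in hypoxic culture, 7.06, 7.65, 8.28, 8.10, 7.95 and 8.07 on days 1 to 6 and 8.13, 8.17 and 8.05 on day 7. It was lower in all 3 comparisons, with differences of -1.44 ± 0.13 on days 1 to 3, -1.06 ± 0.13 on days 4 to 6 and -0.99 ± 0.13 on day 7 (adjusted p = 0.000101, 0.000435 and 0.000486). A second probe of Ifit2 was also lower in all 3.

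Ifi27l2a, a small membrane protein of the interferon-inducible Ifi27 family, fell below detection on some normoxic days. It gave 10.52, 10.87 and 11.56 in hypoxic culture, 6.38, 4.65, 5.13, 5.40, 7.23 and 7.71 on days 1 to 6 and 10.41, 10.81 and 8.60 on day 7. Ifi27l2a was not detected on days 2, 3 and 4. It was at least 38.4-fold lower on days 1 to 3 (fitted difference -5.60 ± 0.57, adjusted p = 0.000181) and at least 18.2-fold lower on days 4 to 6 (adjusted p = 0.000736). On day 7 the difference did not pass the test (-1.04 ± 0.57, adjusted p = 0.152).

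Bst2 (tetherin), which holds budding virus at the cell surface, gave 10.98, 11.58 and 11.12 in hypoxic culture, 9.11, 8.79, 8.52, 9.49, 10.18 and 11.27 on days 1 to 6 and 11.22, 11.42 and 10.63 on day 7. It was 5.34-fold lower on days 1 to 3 (-2.42 ± 0.25, adjusted p = 0.000186), and from day 6 its values lay in or near the hypoxic range. Parp14, an ADP-ribosyltransferase, gave 8.68, 8.67 and 8.93 in hypoxic culture, 6.67, 6.37, 6.60, 7.63, 7.61 and 8.74 on days 1 to 6 and 8.63, 8.35 and 7.88 on day 7. It was 4.63-fold lower on days 1 to 3 (-2.21 ± 0.20, adjusted p = 0.000119). Isg20, an RNA exonuclease, gave 8.80, 8.44 and 8.66, then 7.83, 7.61, 7.75, 7.24, 8.16 and 7.72 on days 1 to 6 and 8.59, 8.35 and 8.03 on day 7, and was lower on days 1 to 3 (-0.90 ± 0.18, adjusted p = 0.00425). Trim25, the ubiquitin ligase that assists the sensor Ddx58, gave 10.73, 10.37 and 10.54, then 9.58, 9.58, 9.80, 9.70, 9.92 and 10.10 on days 1 to 6 and 9.80, 9.92 and 9.96 on day 7. Every normoxic array of Trim25 lay below every hypoxic one, and it was lower in all 3 comparisons, with differences of -0.89 ± 0.14, -0.64 ± 0.14 and -0.65 ± 0.14 (adjusted p = 0.00123, 0.00621 and 0.00465). The day 7 call of Trim25 was lost with the mean over its probes.

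Other effectors had smaller early differences. Rsad2 (viperin), which makes a nucleotide that stops viral RNA synthesis, was detected on 1 of 3 hypoxic arrays, which gave 5.20, 5.07 and 5.68. It gave 5.23, 4.95, 5.23, 5.86, 6.90 and 7.01 on days 1 to 6 and 7.62, 7.02 and 6.09 on day 7. Its early values overlapped the hypoxic ones, and it was at least 2.16-fold higher on days 4 to 6 (adjusted p = 0.0236) and at least 2.70-fold higher on day 7 (fitted difference 1.59 ± 0.37, adjusted p = 0.00808). The days 4 to 6 call was lost with the sets as a block, and without hypoxic replicate 1, hypoxic replicate 2, day 5 or day 6. Ifi35, which partners Nmi, gave 8.24, 8.67 and 8.42, then 7.36, 7.94, 7.53, 7.76, 8.62 and 9.03 on days 1 to 6 and 9.35, 9.23 and 8.87 on day 7. It was lower on days 1 to 3 (-0.84 ± 0.18, adjusted p = 0.0057) and higher on day 7 (0.70 ± 0.18, adjusted p = 0.0111), a call that was lost with a shift to a common median. Ifitm3 and Ifitm1 are membrane proteins that hinder the entry of viruses. Ifitm3 gave 13.63, 13.82 and 13.76, then 13.41, 12.94, 13.04, 13.34, 13.95 and 13.77 on days 1 to 6 and 13.93, 13.77 and 13.48 on day 7, and was 1.52-fold lower on days 1 to 3 (adjusted p = 0.0117). Ifitm1 gave 13.48, 13.95 and 13.72, then 13.69, 13.36, 13.35, 13.83, 14.17 and 13.96 on days 1 to 6 and 14.15, 13.93 and 14.01 on day 7. It passed the test only for its slope (0.10 ± 0.04 per day, adjusted p = 0.0442), a call that was lost in 13 of 20 alternatives, among them leaving out any one day 7 array or day 2, 3, 4 or 6.

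Mx2, a dynamin-like antiviral GTPase listed here with the effectors, gave 6.63, 5.55 and 6.60, then 5.04, 4.81, 5.10, 4.59, 6.23 and 6.74 on days 1 to 6 and 7.08, 7.14 and 4.94 on day 7. It was not detected on days 1 to 4 or in day 7 replicate 3, and only its slope passed the test (0.31 ± 0.10 per day, adjusted p = 0.042). Rtp4, a receptor-transporting protein, gave 5.84, 5.31 and 5.51, then 4.80, 4.76, 4.94, 4.61, 5.19 and 5.70 on days 1 to 6 and 6.06, 6.85 and 4.85 on day 7, was detected on 5 arrays, and also passed only for its slope (0.22 ± 0.08 per day, adjusted p = 0.0485). Both slope calls were lost when single arrays were left out. Zbp1, a sensor of Z-form nucleic acids, passed in no comparison by its brighter probe (0.46 ± 0.22 on day 7, adjusted p = 0.102). A second Zbp1 probe, detected on 6 arrays, was higher on day 7 by 3.14 (adjusted p = 0.000314 in a fit of all probes), so the probes of this gene disagree.

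Of the 4 GTPases, 3 were lower on days 1 to 3, against 29.2% of all genes, and 2 were higher on day 7, against 25.9%. Gbp3, a guanylate-binding protein, gave 9.06, 9.37 and 9.45 in hypoxic culture, 6.50, 6.10, 6.16, 7.42, 8.04 and 10.18 on days 1 to 6 and 9.98, 10.00 and 9.13 on day 7. It was 8.21-fold lower on days 1 to 3 (-3.04 ± 0.26, adjusted p = 8.09e-05), and its day 7 arrays overlapped the hypoxic range. Igtp (Irgm3) gave 7.69, 8.23 and 7.997 in hypoxic culture, 5.74, 5.11, 5.42, 6.04, 6.79 and 8.92 on days 1 to 6 and 8.81, 8.97 and 7.52 on day 7. Igtp was not detected on days 2 and 3 and was at least 5.52-fold lower on days 1 to 3 (fitted difference -2.55 ± 0.38, adjusted p = 0.00106). Gbp2 gave 9.45, 9.10 and 9.50, then 8.40, 8.07, 8.94, 9.48, 9.63 and 10.93 on days 1 to 6 and 10.52, 10.39 and 10.19 on day 7. It was 1.84-fold lower on days 1 to 3 (adjusted p = 0.0026) and 2.02-fold higher on day 7 (1.02 ± 0.16, adjusted p = 0.00114). Ifi47 (Irg-47) gave 5.47, 5.89 and 5.38 in hypoxic culture, 5.07, 5.06, 5.28, 6.04, 7.27 and 8.52 on days 1 to 6 and 8.97, 8.99 and 8.60 on day 7. It was not detected on days 1 to 3, where its values did not pass the test (adjusted p = 0.0807). It was 3.25-fold higher on days 4 to 6 (adjusted p = 0.000285) and 9.69-fold higher on day 7 (3.28 ± 0.19, adjusted p = 2.02e-05), the highest fitted difference among the members on day 7.

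**Figure D3:**
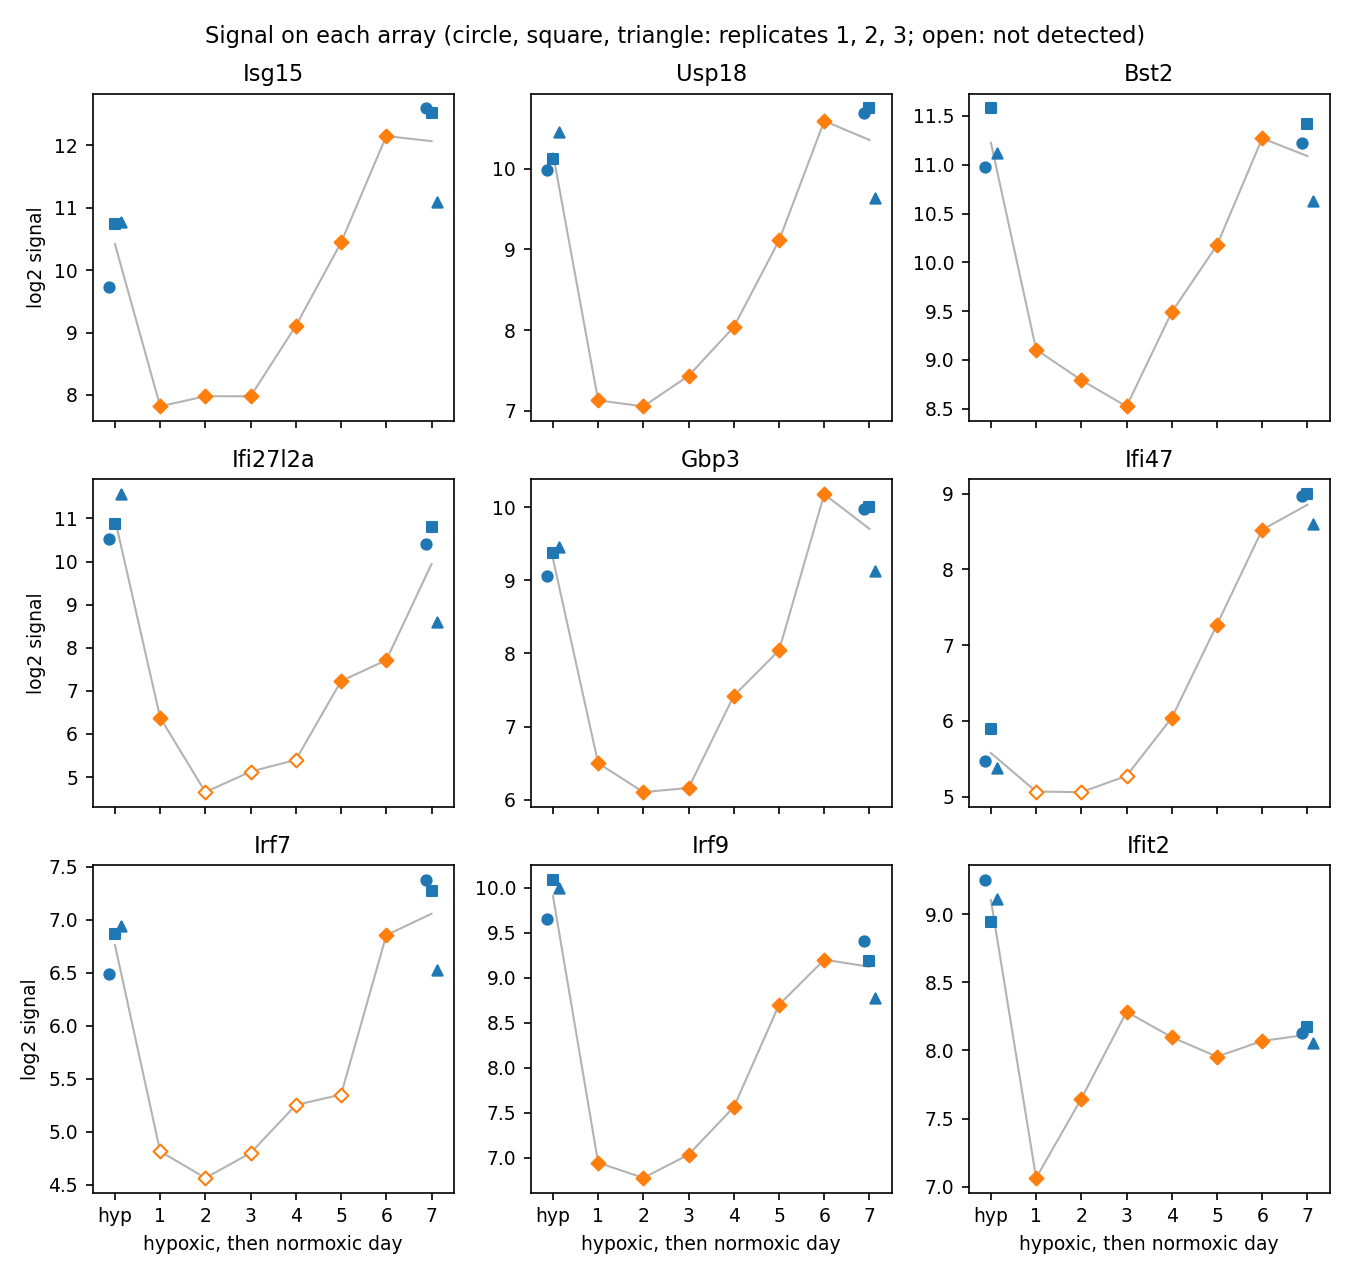
Normalized log2 signal (y) of 9 members on every array, in hypoxic culture (hyp) and on normoxic days 1 to 7 (x); blue marks are the replicates of hypoxic culture and day 7, orange marks the single arrays of days 1 to 6, and the grey line joins the means. Ifi47 ends above its hypoxic level, Irf9 and Ifit2 below it, and day 7 replicate 3 is the lowest day 7 array in all 9 genes.

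Of the Stat and Irf factors, the parts of the complex that binds the ISRE were lower on days 1 to 3. Irf9, its DNA-binding part, gave 9.65, 10.09 and 10.00 in hypoxic culture, 6.95, 6.78, 7.04, 7.57, 8.70 and 9.20 on days 1 to 6 and 9.41, 9.19 and 8.78 on day 7. Every normoxic array lay below every hypoxic array. Irf9 was 7.96-fold lower on days 1 to 3 (-2.99 ± 0.20, adjusted p = 3.12e-05), 2.68-fold lower on days 4 to 6 (adjusted p = 0.000876) and 1.73-fold lower on day 7 (adjusted p = 0.0111). A second Irf9 probe was lower in all 3 comparisons as well. Stat2, its transactivating part, gave 7.40, 7.02 and 7.11 in hypoxic culture, 5.00, 5.02, 4.82, 4.80, 5.98 and 6.27 on days 1 to 6 and 6.93, 6.61 and 5.17 on day 7. It was not detected on days 1 to 4 and was at least 3.46-fold lower on days 1 to 3 (adjusted p = 0.00352). Its day 7 arrays all lay below the hypoxic ones without passing the test (adjusted p = 0.0956).

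Irf7 gave 6.48, 6.86 and 6.94 in hypoxic culture, 4.81, 4.56, 4.80, 5.25, 5.35 and 6.85 on days 1 to 6 and 7.37, 7.27 and 6.52 on day 7. It was not detected on days 1 to 5, was at least 2.59-fold lower on days 1 to 3 (adjusted p = 0.000442), and overlapped the hypoxic range on day 7. Irf1, a factor that responds to interferon gamma and to inflammatory signals, gave 11.25, 11.25 and 11.30 in hypoxic culture, 11.05, 11.15, 11.24, 11.62, 11.60 and 11.96 on days 1 to 6 and 11.65, 11.62 and 11.58 on day 7. The early values lay slightly below the hypoxic ones without passing the test (-0.12 ± 0.11, adjusted p = 0.398). Irf1 was higher on days 4 to 6 (0.46 ± 0.11, adjusted p = 0.00929, lost without day 6) and on day 7 (0.35 ± 0.11, adjusted p = 0.0256). The day 7 call was lost when any one of the arrays of either group other than day 7 replicate 3 was left out. It was also lost with the sets as a block and with a shift to a common median, while all 5 Irf1 probes were higher on day 7 in a fit of all probes.

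Of the RNA sensors, Dhx58 (LGP2), a helicase that tunes the responses of the other sensors, gave 6.59, 6.95 and 7.10 in hypoxic culture, 4.99, 4.98, 5.24, 4.91, 5.68 and 7.42 on days 1 to 6 and 7.57, 8.06 and 6.58 on day 7. It was not detected on days 1 to 4 and was at least 2.81-fold lower on days 1 to 3 (adjusted p = 0.00434). Ddx58 (RIG-I), which recognises RNA with 5′ triphosphates, passed in no comparison (-0.20 ± 0.22 on days 1 to 3, adjusted p = 0.481).

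**Figure D4:**
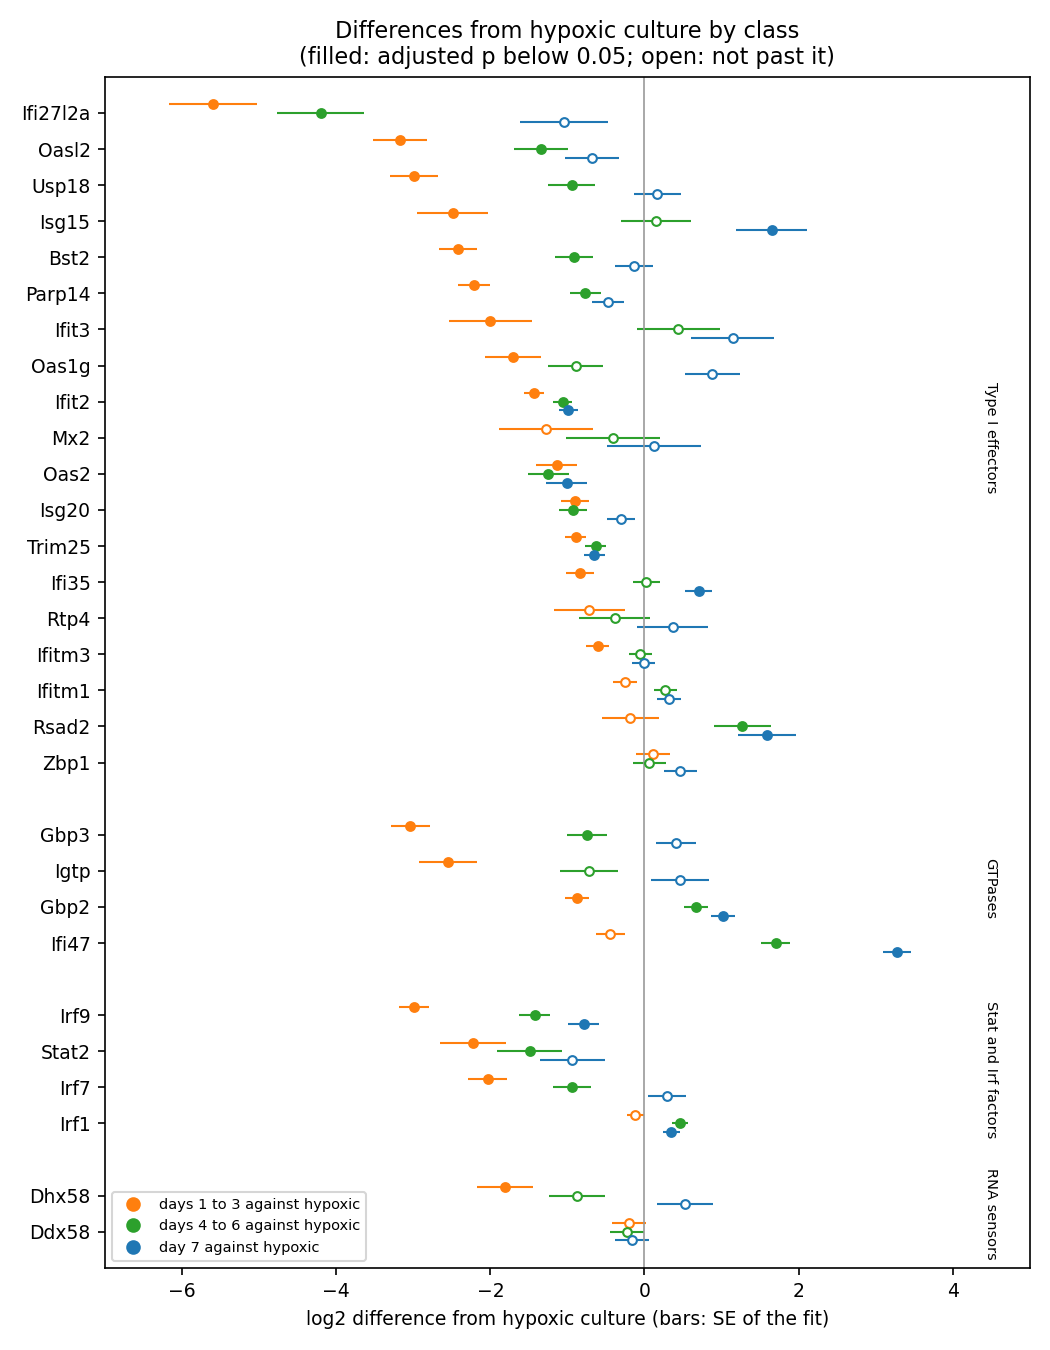
Log2 difference from hypoxic culture (x, ± SE of the fit) for each member (y), by class, on days 1 to 3, days 4 to 6 and day 7; filled points passed the adjusted p of 0.05, and genes not detected on some arrays are shown at their fitted values. On days 1 to 3 the filled points all lie below 0, from -0.61 in Ifitm3 to a fitted -5.60 in Ifi27l2a, which was detected on 1 of those 3 arrays.

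Set side by side, the class medians on days 1 to 3 were -1.28 for the 19 effectors, -1.71 for the 4 GTPases and -2.13 for the 4 factors, genes not detected being taken at their fitted values. The members lower were 14 of 19 (Oas2 among them), 3 of 4 and 3 of 4, against 29.2% of all genes. On days 4 to 6 the medians were -0.64, -0.03 and -1.18. On day 7 the medians were 0.13, 0.74 and -0.25. There 3 effectors were higher and 3 lower (Oas2 among the lower), 2 GTPases higher and 0 lower, and 1 factor higher and 1 lower. Of all genes 25.9% were higher and 33.7% lower, so the effector and factor counts were near or under the background. All 4 GTPases and all 4 factors rose over the normoxic days, as did 13 of 19 effectors and 16.5% of all genes. The slope calls of Irf1 and Stat2 were each lost in 6 of 20 alternatives, among them leaving out day 2. The difference between classes was not tested, and 4 genes in a class are few.

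The day 7 comparison depended on 1 array and on the scaling. Without day 7 replicate 3, 14 members were higher and 4 lower, while 25.2% of all genes were higher and 32.2% lower. Members that passed as higher in this way and not with all arrays were Ifit3 (1.75 ± 0.34, adjusted p = 0.00424), Oas1g (1.23 ± 0.29, adjusted p = 0.00989), Igtp (0.92 ± 0.19, adjusted p = 0.00621), Gbp3 (0.70 ± 0.17, adjusted p = 0.0104), Irf7 (0.56 ± 0.18, adjusted p = 0.0329), Usp18 (0.53 ± 0.18, adjusted p = 0.0403), Dhx58 (0.94 ± 0.22, adjusted p = 0.00981) and Rtp4 (0.90 ± 0.27, adjusted p = 0.0258, detected on 2 of 3 hypoxic arrays). With all arrays, the groups did not overlap in 13 of 29 members, against 66.0% of all genes, and without that array in 22, against 72.0% of all genes. Within set a, 1 member was higher and 2 lower, against 12% and 13.3% of all genes, and within set b 10 were higher and 1 lower, against 19.9% and 23.8%. With each array shifted to a common median in place of quantile normalization, 4 members were higher and 8 lower, against 19.7% and 42.2% of all genes. With the median of probes detected on all arrays, 8 were higher and 3 lower, against 31.7% and 28.8%.

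Of the interferon genes looked at, Ifnb1, Ifna2, Ifna4, Ifne, Ifng and Ifnl3 all had probes that did not pass the detection filter, as did Ifnar1. The filter asks for at least 3 of the 12 arrays, so a gene detected on fewer would not pass it either. Of 4 measured receptor genes, Ifngr1 and Ifngr2, the chains of the interferon gamma receptor, were lower on days 1 to 3 (-0.64 ± 0.13 and -0.69 ± 0.16, adjusted p = 0.00449 and 0.00771). Of 14 signalling genes, 7 were lower and 2 higher on days 1 to 3, against 29.2% and 25.6% of all genes, and 8 were lower and 1 higher on day 7, against 33.7% and 25.9%. Of the kinases of the type I receptor, Tyk2 was lower, whereas Jak1 did not pass the test on days 1 to 3 (-0.51 ± 0.24, adjusted p = 0.114) and was lower on day 7 (-0.78 ± 0.24, adjusted p = 0.026). Tyk2 and Jak2, a kinase of the interferon gamma receptor, had differences of -1.42 ± 0.15 and -1.49 ± 0.15 on days 1 to 3 and -1.54 ± 0.15 and -1.54 ± 0.15 on day 7 (adjusted p at most 0.000221). Cgas, the sensor of cytosolic DNA, was higher in all 3 comparisons, by 1.80 ± 0.13 on days 1 to 3 (adjusted p = 4.5e-05). Of 8 negative regulators, 4 were lower and 1 higher on days 1 to 3, and Socs3, which blocks Jak kinases, was lower (-0.83 ± 0.15, adjusted p = 0.00273).

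Interferon-inducible genes that are not on the list were counted from a separate list. Of 30 measured, 16 were lower and 1 higher on days 1 to 3, 6 lower and 8 higher on day 7, and 19 rose and 0 fell over the normoxic days. The shares of all genes were 29.2% lower and 25.6% higher on days 1 to 3, 33.7% lower and 25.9% higher on day 7, and 16.5% rising and 19% falling. On day 7 the 8 higher and 6 lower of 30 were therefore near or under the background. Lgals3bp, Uba7, the enzyme that activates Isg15, and Ifi27 were lower on days 1 to 3, with differences of -2.36 ± 0.31, -2.33 ± 0.29 and -2.11 ± 0.13 (adjusted p = 0.000581, 0.000448 and 2.26e-05), Uba7 not being detected on 1 of the 3 arrays and at least 4.52-fold lower. The chemokine gene Cxcl10 was not detected in hypoxic culture and was at least 1.997-fold higher on day 7 (adjusted p = 0.000321). Cxcl10 passed the detection filter through normoxic arrays alone, so its being higher there was in part fixed by that filter. Of 5 other GTPases, 2 were lower and 2 higher on days 1 to 3. Irgm2 was lower (-2.96 ± 0.25, adjusted p = 8.28e-05) and rose by 0.65 ± 0.07 per day (adjusted p = 0.000155). Gbp7, not detected on days 1 to 3, was at least 1.98-fold lower there (adjusted p = 0.00586) and rose by 0.17 ± 0.05 per day (adjusted p = 0.0319). Irgm1 and Gvin1 were higher in all 3 comparisons.

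Markers of cell types were read beside these values. All 7 measured of 8 mammary epithelial markers, among them Krt8, Krt14 and Cdh1, were detected on every array of hypoxic culture, days 1 to 3 and day 7. Their summed linear signal was 41400 to 45300 in hypoxic culture, 49500 to 56100 on days 1 to 3 and 28300 to 28900 on day 7. On days 1 to 3, 1 of the 7 was higher, Krt8, and 2 were lower, against 25.6% and 29.2% of all genes. The lower ones were Cdh1 (-0.59 ± 0.14, adjusted p = 0.0101) and Trp63 (-1.805 ± 0.16, adjusted p = 9.59e-05). Of 11 macrophage markers 3 were measured, with sums of 512 to 650, 732 to 1000 and 1630 to 2180, while Ptprc and Csf1r did not pass the detection filter. These sums were mostly Cd14, which other cells can express and which was higher on day 7 (1.87 ± 0.18, adjusted p = 0.000134). Lyz1 and Mpeg1 were detected on 0 and 1 of the day 7 arrays and did not pass the test there (adjusted p = 0.276 and 0.356). On days 1 to 3 Cd14 and Mpeg1 were higher (adjusted p = 0.0254 and 0.0193). Of 6 plasmacytoid dendritic markers 3 were measured, with sums of 4560 to 5190, 1710 to 4350 and 3260 to 4180, which hold Bst2, itself a member, and Siglech did not pass the filter. Of 8 lymphocyte markers 1 was measured, with sums of 28.1 to 50.1, 26.8 to 62.2 and 29.3 to 49.8. Of 8 fibroblast markers 6 were measured, with sums of 409 to 514, 497 to 1030 and 2060 to 2310. Of these 6, 5 were higher on day 7, Col1a1 and Dcn among them, and 1 was lower, against 25.9% and 33.7% of all genes. Col1a1, Col3a1 and Pdgfrb were not detected in hypoxic culture and passed the filter through normoxic arrays alone. Their being higher there was thus in part fixed by that filter. Of 6 endothelial markers 3 were measured, with sums of 842 to 981, 519 to 693 and 672 to 699. The part of these marker genes in the members' values was not tested.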

How the data were processed

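Total RNA of 12 samples of immortalized tumor-initiating cells was measured on Illumina Mouse WG-6 v2.0 arrays. Per the labels' protocols, RNA was column-extracted and biotinylated cRNA hybridized. The deposited table held log2 signals with medians of 6.74 to 6.94, whose values looked uncorrected for background and not normalized, and a detection p-value per probe. The deposited p-value columns carried no sample names. The neighbouring column ordered the signals in 0 of 12 arrays, whereas each array was ordered exactly by 1 column, which was used. In the authors' processed log2 table, 1 of 6 signal columns held the array of its own label, so the 2 tables' sample names conflict. The deposited signals follow the names of the first table.

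Signals were processed with neqc of limma 3.58.1 in R 4.3.3 (offset 16). Probes with detection p below 0.05 on at least 3 arrays were kept (18561). Of all probes, 34885 had 1 gene symbol, 18 several and 10378 none here. Each gene was represented by its brightest kept probe. Group means were fitted with limma (4 residual degrees of freedom), and a slope over 9 normoxic arrays (7). P-values were adjusted over 10365 genes by Benjamini-Hochberg. Every measured member was named, with array values for members called in any comparison. Members and lists were chosen with earlier results of these data known. Alternatives changed background correction, scaling, filters, probes, sets, arrays and trend. Code was tested on simulated data. The number of arrays limits the precision. Promoters came from RefSeq.

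Replicate numbers did not pair the arrays (correlations of 0.03, 0.00 and 0.06 between same-numbered arrays).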

Additional observations from a re-analysis of the deposited data

How the results depend on the processing

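The count of members lower on days 1 to 3 (21 of 29) ranged from 20 to 23 over the alternatives, with 0 higher in each. Over all genes the share lower ranged from 14.8% (no filter on dim probes) to 33.7% (detection p below 0.01). The other counts moved. Members changed on day 7 numbered 10 of 29, against 59.7% of all genes. They numbered 16 with no background correction, where 27.0% of all genes were higher and 35.0% lower. With a trend on the mean signal they also numbered 16, against 27.1% and 35.0%. Each of these counts was under the share of all genes. Leaving out 1 array gave 8 to 18, the highest without day 7 replicate 3, where 25.2% of all genes were higher and 32.2% lower. Members not overlapping on day 7 numbered 13, against 66.0% of all genes. With 1 array left out they numbered 14 to 22, the highest without day 7 replicate 3, against 72.0%. Members changed on days 4 to 6 numbered 17, and 10 with the sets as a block and 5 within set a, an alternative added after the data were seen. With 1 array left out they numbered 10 to 20, the lowest without day 4, where 23.3% of all genes were higher and 26.7% lower. Rising slopes numbered 22, against 16.5% of all genes, and 17 to 22 with 1 array left out. They numbered 3 without days 1 to 3 and 9 without all day 7 arrays, against 1.63% and 1.98%. Both of these alternatives were added after the data were seen. The cause was not tested, though the left-out alternatives use fewer arrays. Ifitm3 on day 7 reversed to 0.53 (adjusted p = 0.0432) when scaled to the median of probes detected on all arrays. A shift to a common median moved the median of all genes on day 7 from -0.11 to -0.31, and the share of calls that were higher from 43.5% to 31.8%. The replicate block gave 9 members changed on day 7 in place of 10, while 25.3% of all genes were higher and 32.6% lower, the replicate numbers being only names. Of single-gene results under alternatives, 536 of 550 on days 1 to 3 had the direction and side of the threshold of the value reported, as did 440 of 521 on day 7, 465 of 550 on days 4 to 6 and 493 of 579 for the slope. Arrays near background limit what can be said of the 10 members not detected on every array.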
